A study of Mus musculus with 3 samples.

Results

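The MYC network is the set of transcription factors that share MAX as their dimer partner, together with the related factor MLX. The 9 genes described here, Myc, Mycn, Max, Mxd1, Mxd3, Mxd4, Mxi1, Mnt and Mlx, were chosen by name, and each is 1 row of the 25638 gene rows in the count table. All 9 had reads in every library. The study profiled by RNA-seq the CD8+ T cells of spleens from wild-type (WT), untreated mice, with 1 library each for effector memory T cells, central memory T cells and naive T cells. The sources used here state neither the age and strain of the mice nor how many animals gave each library. Each group is 1 library, so no difference below has a replicate check, and every comparison is between single libraries. In bulk samples such as these, fewer cells expressing a gene and less RNA per cell cannot be told apart.

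MYC and its relative MYCN bind DNA as dimers with MAX at E-box sequences and activate genes of growth, metabolism and division. MXD1, MXD3, MXD4, MXI1 (the second MXD protein) and MNT compete for MAX and the same sites, and recruit the SIN3 and histone deacetylase corepressor. MLX pairs with some MXD proteins, with MNT and with the glucose-sensing factors MondoA and ChREBP. In T cells MYC is known for its induction after antigen recognition, when it drives the metabolic switch of dividing cells, whereas MXD proteins are known mostly from cells that leave the cycle or differentiate. MXD3 is an exception described in mouse, being expressed in S phase and controlled by E2F factors.

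The libraries held 33087462 counts for effector memory, 35846315 for central memory and 26876909 for naive cells. Levels are given as CPM, read counts scaled to a common effective library size, and a count of 0 would allow up to 0.0938, 0.0837 and 0.108 CPM in the 3 libraries in that order (3 counts each). Intervals are 95% counting intervals and, like these floors, cover counting error only. All 7 CD8 T cell markers were present in each library, with Cd8a at 408 CPM in effector memory, 1063 CPM in central memory and 1868 CPM in naive. Ccr7, a chemokine receptor used to separate the memory subsets, stood at 31.9, 339 and 373 CPM in effector memory, central memory and naive cells, and Cd44, a marker of antigen experience, at 113, 45.8 and 2.95 CPM. Of 12 proliferation genes, all 12 were past the 2-fold rule (defined with the first comparison below) as higher in effector memory and 11 in central memory, each against naive. Of all measured genes, 22.3% and 11.2% were higher in these 2 comparisons. Mki67 was at 1819, 301 and 2.62 CPM in effector memory, central memory and naive, so against naive it reached 5 CPM only through the memory libraries. The same held for Bub1, Ccna2 and Aurkb, with log2 ratios of 10.2, 9.75 and 9.54 in effector memory against naive. Mki67 and these genes could therefore be called in 1 direction only against naive, and the rest of the 12 are not given singly. Summed levels of 5 NK cell markers were 13.1, 61.8 and 0.898 CPM, with Ncr1 at 0 outside central memory. Of the B cell markers, Cd79a was at 0.625, 3.29 and 5.32 CPM, Cd79b at 2.19, 2.76 and 14.6 CPM, and Ms4a1 at 0, 0 and 3.41 CPM. Summed levels of 8 myeloid and dendritic markers were 16.5, 5.56 and 6.29 CPM, with Adgre1, Siglech and Flt3 at 0 throughout. Xcr1, the only gene of this list that reached 5 CPM, did so in effector memory alone. It was higher there, with log2 ratios of 2.61 against naive and 2.97 against central memory. The 4 CD4 T cell markers summed to 94.3, 39.7 and 7.73 CPM, nearly all of it in both memory libraries from Zbtb7b, with Cd4 at 0.281, 0.251 and 2.12 CPM. Plasma cell markers (3 genes) summed to 1.81, 0.391 and 0.791 CPM, and 5 erythroid markers to 0, 0 and 0.431 CPM. Of all Trbv (receptor beta chain variable segment) counts, Trbv12-1 made up 98.4% in effector memory, 99.6% in central memory and 7.13% in naive. The part that division, other cell types or receptor use play in the results below was not tested.

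Promoter windows are shown for the 4 network genes that differed most between libraries: Mycn, Mxd3, Mxi1 and Mxd4. Each is the 250 bases before a RefSeq gene start on GRCm38.p6, read 5′ to 3′ on the gene's strand. Capitals mark matches, on either strand, to the E-box CACGTG, the hypoxia response core ACGTG or GCGTG (every E-box contains ACGTG on both strands), or the E2F words GCGGGAA and TTTGGCGC. The last word was added after the Mycn window had been read.
Mycn (chr12:12941837-12942086, minus strand): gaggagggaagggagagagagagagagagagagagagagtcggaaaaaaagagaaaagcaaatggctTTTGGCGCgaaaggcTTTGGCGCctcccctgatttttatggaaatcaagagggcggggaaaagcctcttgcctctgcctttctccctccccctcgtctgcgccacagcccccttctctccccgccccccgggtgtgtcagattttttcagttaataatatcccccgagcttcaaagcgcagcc
Mxd3 (chr13:55329732-55329981, minus strand): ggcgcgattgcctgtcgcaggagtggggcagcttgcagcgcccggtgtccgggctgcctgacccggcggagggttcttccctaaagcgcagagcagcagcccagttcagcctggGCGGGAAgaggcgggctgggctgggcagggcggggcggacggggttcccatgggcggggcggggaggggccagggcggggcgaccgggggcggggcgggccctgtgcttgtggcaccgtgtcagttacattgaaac
Mxi1, the second of 3 RefSeq starts (chr19:53329163-53329412, plus strand): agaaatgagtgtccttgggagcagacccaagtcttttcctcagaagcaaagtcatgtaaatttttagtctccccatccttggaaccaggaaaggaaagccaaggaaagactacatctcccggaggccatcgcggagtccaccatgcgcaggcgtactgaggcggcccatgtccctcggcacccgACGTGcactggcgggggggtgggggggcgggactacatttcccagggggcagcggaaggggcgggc
Mxd4 (chr5:34187711-34187960, minus strand): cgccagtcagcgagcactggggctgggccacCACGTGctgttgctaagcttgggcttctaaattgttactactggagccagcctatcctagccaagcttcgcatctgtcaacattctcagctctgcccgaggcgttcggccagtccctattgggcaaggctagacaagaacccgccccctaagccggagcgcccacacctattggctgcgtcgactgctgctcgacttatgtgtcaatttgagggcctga

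The Mycn window held 2 matches to TTTGGCGC, beginning 183 and 168 bases before the start. The word is found in 0.417% of the 32851 windows of this length in the RefSeq table. Because it was added after the Mycn window had been read, that share cannot be used to weigh these matches. The Mxd3 window held 1 match to GCGGGAA, 136 bases before the start, where 3.82% of all windows hold one. The Mxd4 window held 1 E-box 219 bases before the start, as 6.02% of all windows do, and the windows of Mnt and Mlx each held 1 E-box as well, 123 and 40 bases before their starts. The printed Mxi1 window held 1 hypoxia core, 66 bases before the start, and 38.6% of all windows hold at least 1. The window of the first Mxi1 start, which lies nearest the annotated gene start, held no match to any of these motifs, and that of the third held 1 hypoxia core 25 bases before its start. The second was chosen for printing with the matches in view. Such a match is a run of letters, not a measured binding site.

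The first comparison set effector memory against naive cells, which have not met antigen. Mycn, Mxd3 and Mxi1 were higher in effector memory, and Myc, Max, Mxd1, Mxd4, Mnt and Mlx passed in neither direction. A gene was called when its level reached 5 CPM in 1 or both libraries of the pair, the levels differed 2-fold or more, and the interval of the ratio left out 1. This 2-fold rule is one of size and not a test. So 3 of the 9 network genes were higher and none was lower, where 22.3% of the 10087 genes measured in this pair were higher and 15.6% were lower (37.9% in either direction). Of the 3, Mycn and Mxd3 reached 5 CPM only through the effector memory library of this pair, so they could be called in 1 direction only.

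Myc, the central activator of the network (ENSMUSG00000022346.15, chromosome 15, 61985391 to 61990374), had 4998 counts in effector memory, 10842 in central memory and 4944 in naive, or 156, 303 and 178 CPM. The central memory library held the highest level, and the other 2 lay close together. In effector memory Myc was 1.14-fold lower than in naive (interval 1.09 to 1.18), a difference past counting error and short of the 2-fold rule. Its log2 ratio of -0.19 lay at percentile 40.9 of the measured genes.

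Mycn, the MYC relative best known from embryonic and neural tissue (ENSMUSG00000037169.15, chromosome 12, 12936093 to 12941914), had 1397 counts in effector memory, 18 in central memory and 4 in naive. These are 43.7, 0.502 and 0.144 CPM, so Mycn was measured above 5 CPM in the effector memory library alone. Its ratio of effector memory to naive was 304-fold (interval 118 to 1117), and that log2 ratio of 8.25 lay at percentile 98.9 of the measured genes. Mycl, the third MYC gene, had 12 counts in effector memory and none in central memory or naive.

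Mxd3, the MXD protein of S phase (ENSMUSG00000021485.14, chromosome 13, 55325168 to 55329823), had 1724 counts in effector memory, 489 in central memory and 2 in naive, at 53.9, 13.7 and 0.0719 CPM. The naive level lay below what 3 counts stand for. Mxd3 was 750-fold higher in effector memory than in naive, with an interval of 207 to 6198 that reflects the 2 naive counts. Its gene shares 105 exon bases with Prelid1 on the opposite strand, and Prelid1 had 26057, 7958 and 3111 counts in effector memory, central memory and naive. The counting is not stated to use strand, so reads in that stretch cannot be told apart, and how many there were was not tested.

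Mxi1 (ENSMUSG00000025025.14, chromosome 19, 53310518 to 53375810), an MXD family repressor described in human cells as a target of hypoxia-inducible factors, had 4227 counts in effector memory, 801 in central memory and 278 in naive. Its levels were 132, 22.4 and 9.99 CPM, with the effector memory library far above the others. In effector memory Mxi1 was 13.2-fold higher than in naive (interval 11.7 to 15.0). The gene also shares 194 exon bases with Gm10197 on the opposite strand, which had no counts in any library. Unlike Mycn and Mxd3, Mxi1 was above 5 CPM in every library.

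The other 6 network genes stayed within 2-fold of naive. Max, the shared partner, stood at 83.0, 125 and 143 CPM in effector memory, central memory and naive, and was 1.73-fold lower in effector memory than in naive (interval 1.64 to 1.81), the furthest below naive of the 9 genes. Mnt, the broadly expressed MYC antagonist, was at 46.2, 87.2 and 59.3 CPM, 1.28-fold lower in effector memory (interval 1.20 to 1.38). Mxd4, an MXD repressor, was 1.25-fold lower in effector memory than in naive (interval 1.17 to 1.33), and Mlx 1.12-fold lower (interval 1.04 to 1.21). Mxd1, an MXD protein induced in differentiating cells, was at 23.8, 35.8 and 15.8 CPM in effector memory, central memory and naive, 1.5-fold higher in effector memory than in naive (interval 1.34 to 1.69).

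**Figure D1:**
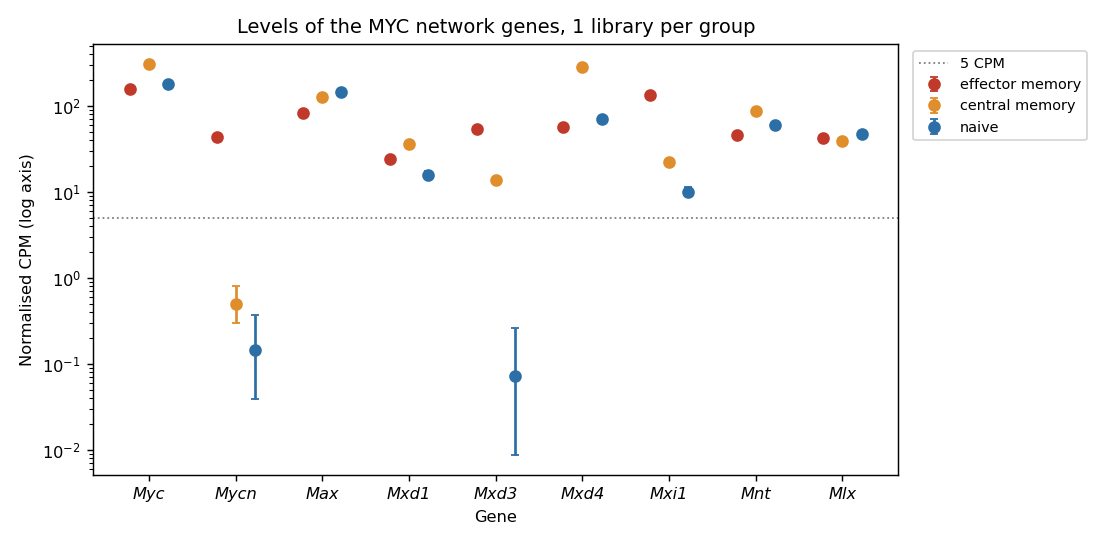
Normalised CPM (log axis) of the 9 network genes in effector memory, central memory and naive libraries, with 95% counting intervals as bars and 5 CPM as a dotted line. Mycn is above the line in effector memory alone, at 43.7 CPM, Mxd3 is above it in both memory libraries, and Mxd4 stands highest in central memory at 279 CPM.

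The second comparison set central memory cells against naive cells. All 4 MXD family genes were higher in central memory: Mxd3, Mxd4, Mxd1 and Mxi1. None of the 9 network genes was lower, and Myc, Max, Mnt and Mlx passed in neither direction; Mycn had too few counts to reach 5 CPM in this pair. In this pair 11.2% of 9737 measured genes were higher and 5.12% lower (16.3% in either direction), against 4 and 0 of the 8 measured network genes. Mxd3 again reached 5 CPM only through the memory library.

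Mxd4 (ENSMUSG00000037235.13, chromosome 5, 34173883 to 34187720) had 9997 counts in central memory, beside 1789 in effector memory and 1940 in naive. The central memory library was the one apart, at 279 CPM, with 55.9 CPM in effector memory and 69.7 CPM in naive. Mxd4 was 4.0-fold higher in central memory than in naive (interval 3.81 to 4.2). The annotation places an antisense RNA gene, not analysed here, over 514 of its exon bases.

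Mxd3 was 190-fold higher in central memory than in naive (interval 52.3 to 1573). Mxd1, with 762 counts in effector memory, 1284 in central memory and 441 in naive, was 2.26-fold higher in central memory than in naive (interval 2.03 to 2.53), and Mxi1 was 2.24-fold higher (interval 1.95 to 2.57). Both of these lie near the 2-fold limit and would not pass a 3-fold one. Myc was 1.70-fold higher (interval 1.65 to 1.76) and Mnt 1.47-fold higher (interval 1.39 to 1.56), both short of the rule. Max was 1.15-fold lower (interval 1.10 to 1.20) and Mlx 1.20-fold lower (interval 1.11 to 1.29). Mycn, with 18 counts in central memory against 4 in naive, had a ratio of 3.50 (interval 1.15 to 14.2) at levels under 1 CPM in both.

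The third comparison set effector memory against central memory. The MXD genes parted here: Mxd3 and Mxi1 were higher in effector memory with Mycn, and Mxd4 was lower. That is 3 of 9 higher and 1 of 9 lower, where 14.8% of 9975 measured genes were higher and 12.8% lower (27.6% in either direction). Mxd4 was 4.99-fold lower (interval 4.74 to 5.25), Mxi1 5.91-fold higher (interval 5.48 to 6.38) and Mxd3 3.95-fold higher (interval 3.57 to 4.38). Mycn was 86.9-fold higher (interval 54.8 to 147), and it reached 5 CPM in this pair only through effector memory, so it could be called in 1 direction only.

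Myc was 1.94-fold lower in effector memory than in central memory (interval 1.87 to 2.0), just short of the rule, and passed it as lower when total counts were used for scaling, at 2.0-fold. Mnt was 1.89-fold lower (interval 1.77 to 2.01), Max 1.51-fold lower (interval 1.44 to 1.58) and Mxd1 1.5-fold lower (interval 1.37 to 1.65). Mlx, with 1349 counts in effector memory, 1409 in central memory and 1313 in naive, had the narrowest range of the 9 genes across the libraries. Its ratio of 1.07 between the memory libraries had an interval of 0.995 to 1.16, which includes 1. Its gene shares 385 exon bases with Psmc3ip on the opposite strand, which had 446, 202 and 77 counts in effector memory, central memory and naive.

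The 3 comparisons share libraries in pairs, so their ratios are not independent of one another.

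**Figure D2:**
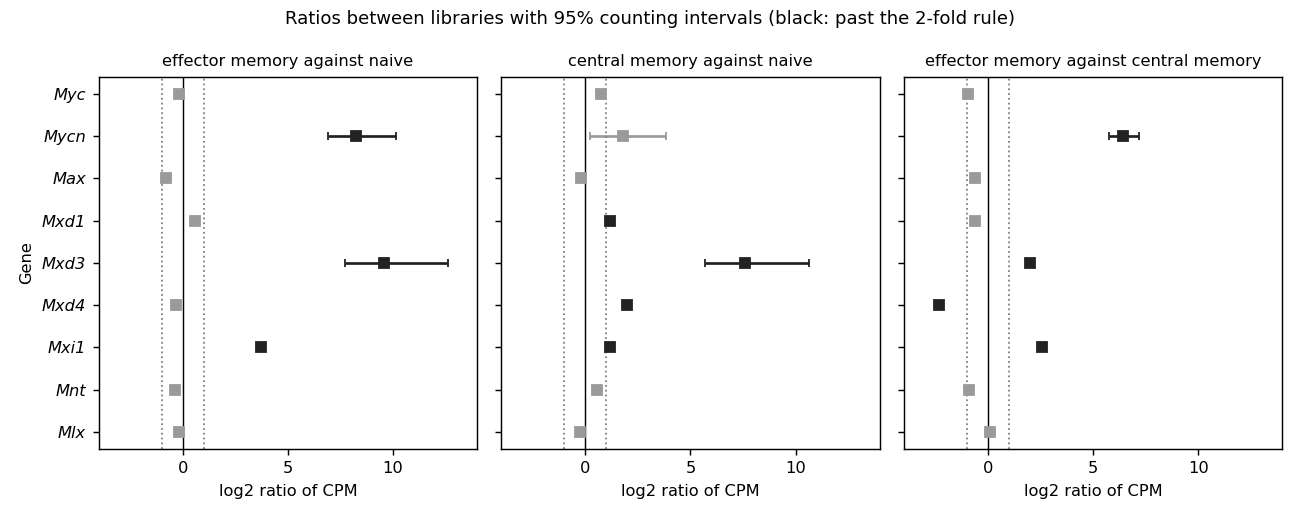
Log2 ratio of CPM for each network gene in the 3 comparisons, with 95% counting intervals; dotted lines mark 2-fold either way and black marks genes past the 2-fold rule. Mycn and Mxd3 have the widest intervals against naive, from 4 and 2 naive counts, and Mxd4 lies at -2.32 in effector memory against central memory.

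Levels of different genes were compared within a library only per length, as TPM (counts divided by the union exon length of the gene in GENCODE M21 and scaled to the same sum in each library). Myc had the highest TPM of the 9 and Max the next in every library, at 183 and 73.2 TPM in effector memory, 405 and 126 TPM in central memory, and 255 and 155 TPM in naive. In effector memory Max was followed by Mxd3 (72.2), Mlx (67.0), Mxi1 (61.5), Mycn (42.1), Mnt (31.7), Mxd4 (20.9) and Mxd1 (10.7 TPM). The counting intervals of Max and Mxd3 overlapped, as did those of Mxd3 and Mlx. In central memory the order after Max was Mxd4 (119.5), Mlx (71.5), Mnt (68.5), Mxd3 (20.9), Mxd1 (18.4), Mxi1 (11.9) and Mycn (0.554 TPM), with overlaps between Mlx and Mnt and between Mxd3 and Mxd1. In naive it was Mlx (92.1), Mnt (50.0), Mxd4 (32.1), Mxd1 (8.74), Mxi1 (5.71), Mycn (0.170) and Mxd3 (0.118 TPM), where Mycn and Mxd3 could not be separated. With the length of the longest transcript in place of the union length, Mlx and Mxi1 changed places in effector memory, as did Mnt and Mxd4 in effector memory and in naive.

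The balance between activators and antagonists differed across the libraries. Myc and Mycn together stood at 225 TPM in effector memory, 405 TPM in central memory and 255 TPM in naive. The 5 antagonists Mxd1, Mxd3, Mxd4, Mxi1 and Mnt together stood at 197, 239 and 96.6 TPM in effector memory, central memory and naive. MYC family transcripts per antagonist transcript were therefore 1.14 in effector memory (interval 1.10 to 1.18), 1.69 in central memory (interval 1.65 to 1.74) and 2.64 in naive (interval 2.53 to 2.76). This quotient is taken within a library, so the scaling between libraries does not enter it. With longest transcript lengths the values were 0.985, 1.31 and 2.28, in the same order. Transcript ratios are not protein ratios, and MYC protein is known to be short-lived.

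The antagonists that led these sums were Mxd3 and Mxi1 in effector memory, and Mxd4 and Mnt in both other libraries. In effector memory Mxd3 made up 36.7% of the antagonist TPM and Mxi1 31.2%, followed by Mnt with 16.1%, Mxd4 with 10.6% and Mxd1 with 5.43%. In central memory Mxd4 made up 49.96% and Mnt 28.6%, with Mxd3 at 8.75%, Mxd1 at 7.70% and Mxi1 at 4.98%. In naive Mnt made up 51.7% and Mxd4 33.2%, and Mxd1 (9.05%), Mxi1 (5.91%) and Mxd3 (0.123%) the rest. Under longest transcript lengths Mxd4, at 45.1%, stood above Mnt, at 38.7%, in naive. Mycn made up 18.7% of the MYC family TPM in effector memory, 0.137% in central memory and 0.0667% in naive. Relative to Max, MYC family TPM was 3.07, 3.20 and 1.64 in effector memory, central memory and naive, and antagonist TPM was 2.69, 1.89 and 0.621. These values depend on the length used. With longest transcript lengths they were 1.95, 2.01 and 1.03 for the MYC family and 1.98, 1.54 and 0.452 for the antagonists.

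**Figure D3:**
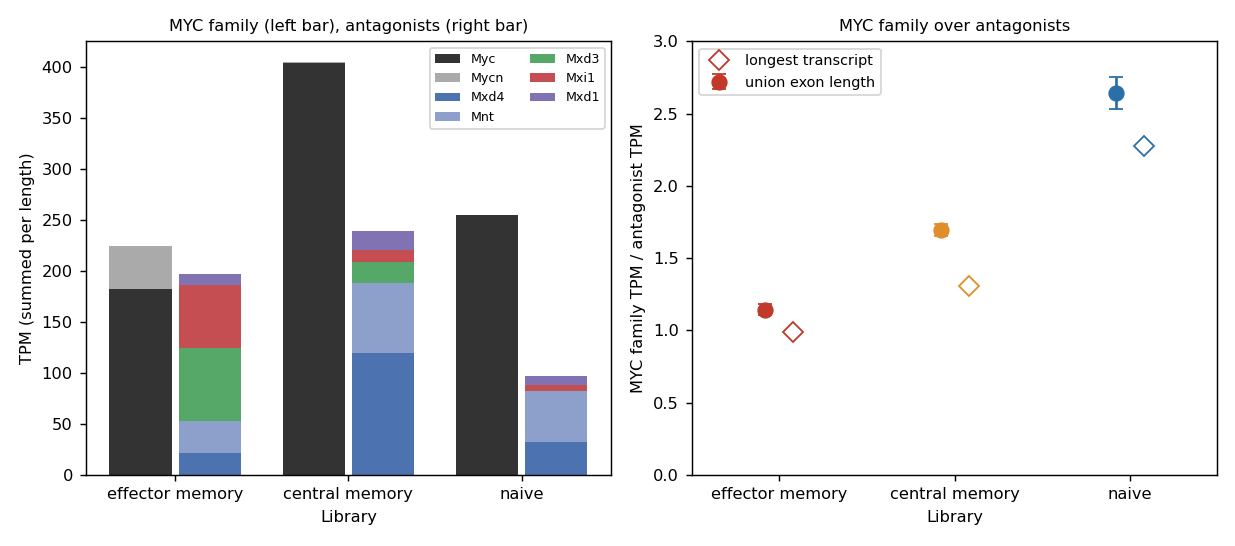
Left, TPM of Myc and Mycn (left bar of each pair) and of the 5 antagonists (right bar), stacked by gene, in effector memory, central memory and naive libraries. Right, MYC family TPM divided by antagonist TPM with union exon lengths (dots, bars are 95% counting intervals) and longest transcript lengths (open diamonds): 1.14, 1.69 and 2.64 with union lengths in effector memory, central memory and naive.

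No gene of the rest of the extended network passed the rule. Mga, which holds both a T-box and a MYC-like domain, was at 157, 214 and 274 CPM in effector memory, central memory and naive. Mlxip, which encodes MondoA, was at 199.5, 247 and 217 CPM. Mlxipl, which encodes ChREBP, had 9 and 4 counts in effector memory and central memory and none in naive, and like Mycl it was not measured at 5 CPM.

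Corepressors act with the MXD proteins and MNT, and cofactors with MYC. Of 12 SIN3 and histone deacetylase corepressor genes, 1 was higher in effector memory against naive, none was lower, beside 22.3% higher and 15.6% lower over all measured genes, and the median log2 ratio was 0.33, beside 0.06 over all measured genes. Ncor1, a corepressor scaffold at 370, 540 and 702 CPM in effector memory, central memory and naive, passed as lower against naive with total counts and upper quartile factors. The 1 higher gene was Sap30, a SIN3-associated subunit, at 61.6, 9.71 and 4.46 CPM in effector memory, central memory and naive. It was 13.8-fold higher in effector memory than in naive (interval 11.5 to 16.7), and also passed as higher in effector memory against central memory. Sap30 passed as higher in central memory against naive too, where the call was lost with upper quartile factors, at a minimum of 20 CPM and at a ratio of 3. In both pairs with naive it reached 5 CPM only through the memory library, so there it could be called in 1 direction only. Of 14 MYC cofactors, Ruvbl2, a helicase subunit of chromatin complexes, was 2.45-fold higher in effector memory than in naive (interval 2.30 to 2.60). Trrap, the scaffold through which MYC recruits histone acetyltransferases, was 2.14-fold lower than in naive (interval 2.07 to 2.20) and 2.0-fold lower than in central memory (interval 1.95 to 2.06), the last of which did not pass with DESeq2 size factors or upper quartile factors. The other 12 cofactors passed in neither direction against naive. That leaves 1 of 14 higher and 1 lower in effector memory against naive, beside 22.3% and 15.6% of all measured genes. None of the 14 passed in central memory against naive, where 11.2% of all measured genes were higher and 5.12% lower.

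Genes that set MYC stability and turnover went both ways in effector memory against naive, with 3 of 15 higher and 5 lower (median log2 ratio 0.05), beside 22.3% and 15.6% of all measured genes. The share of higher genes is near that of all genes. Aurka, a mitotic kinase that also stabilises MYCN, was 42.6-fold higher (interval 33.8 to 54.3), and C330027C09Rik, the older name of Cip2a, whose product protects MYC from dephosphorylation, was 43.1-fold higher (interval 34.2 to 55). Skp2, a ubiquitin ligase subunit acting on MYC, was 6.71-fold higher (interval 5.30 to 8.59). Aurka, Cip2a and Skp2 are also genes of dividing cells. In effector memory against naive all 3 reached 5 CPM only through effector memory, so they could be called in 1 direction only. The 5 lower genes were Fbxo32, Usp28, Usp36, Ppp2r5a and Huwe1. Usp28 and Usp36 are deubiquitinases that act on MYC, and Usp36 was at 48.2, 141 and 160 CPM in effector memory, central memory and naive. Fbxw7, the best studied ligase subunit for MYC, was at 34.1, 35.0 and 31.4 CPM and is named for its role, outside the rule for naming genes. In central memory against naive the same 3 genes, Cip2a, Aurka and Skp2, were higher and none was lower, beside 11.2% and 5.12% of all measured genes. All 3 reached 5 CPM only through the memory library, none of them passed at a minimum of 20 CPM, and 2 genes were lower at a ratio of 1.5. In effector memory against central memory 2 of the 15, Aurka and Cip2a, were higher and 4 were lower, Fbxo32 and Usp36 the furthest. Of all measured genes in that pair, 14.8% were higher and 12.8% lower.

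Known MYC target genes were taken in 2 lists. Of 25 targets of ribosome biogenesis, 2 were higher and 5 lower in effector memory against naive, beside 22.3% and 15.6% of all measured genes, and the median log2 ratio was -0.43, beside 0.06 over all measured genes. The share of lower genes is near that of all genes. Npm1 and Ncl, abundant nucleolar proteins, were 2.16-fold higher (interval 2.13 to 2.20) and 2.05-fold higher (interval 2.01 to 2.08), and Ncl did not pass with total counts or upper quartile factors, at 1.91-fold with each. Utp20 and Rrp12, ribosomal RNA processing factors, were 3.71-fold lower (interval 3.49 to 3.94) and 3.31-fold lower (interval 3.05 to 3.60). Gnl3 and Ddx21, a nucleolar GTPase and an RNA helicase, were 2.51-fold and 2.46-fold lower, and the fifth lower gene was Rrp9. None of the 25 passed in central memory against naive, where 11.2% of all measured genes were higher and 5.12% lower. In effector memory against central memory Npm1 was higher and Rrp12 and Utp20 were lower, beside 14.8% and 12.8% of all measured genes.

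Of 24 targets of growth and metabolism, 8 were higher and 1 was lower in effector memory against naive (median log2 ratio 0.71). Of all measured genes in that pair, 22.3% were higher and 15.6% lower. The share called in either direction is close to the 37.9% of all measured genes, and 15 were higher at a ratio of 1.5 and 5 at a ratio of 3. Hk2, the first enzyme of glycolysis, was at 230.5, 24.0 and 4.92 CPM in effector memory, central memory and naive. Against naive it reached 5 CPM only through the memory libraries, so there it could be called in 1 direction only. Ldha, lactate dehydrogenase, was at 3911, 486 and 338 CPM, 11.6-fold higher in effector memory than in naive (interval 11.3 to 11.8). Slc2a1, the glucose transporter GLUT1, was 8.16-fold higher (interval 7.62 to 8.75) and Odc1, the first enzyme of polyamine synthesis, 3.53-fold higher (interval 3.39 to 3.67). The 1 lower gene was Ccnd2, a G1 cyclin, 2.73-fold lower (interval 2.66 to 2.80). In central memory against naive only Hk2 passed, 4.88-fold higher (interval 4.07 to 5.89), and none of the 24 was lower. Of all measured genes in that pair, 11.2% were higher and 5.12% lower. In effector memory against central memory 8 were higher and 1 lower, beside 14.8% and 12.8% of all measured genes, with a median log2 ratio of 0.69 beside -0.06 over all measured genes. Slc7a5, a subunit of the large neutral amino acid transporter, was at 211, 57.7 and 70.8 CPM in effector memory, central memory and naive, 3.67-fold higher in effector memory than in central memory (interval 3.49 to 3.85). Myc itself stood highest in central memory and Mycn in effector memory, and the part of either in the levels of these targets was not tested.

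Of 10 genes described as repressed by MYC, 7 were measured in effector memory against naive, with 4 higher and 1 lower, beside 22.3% and 15.6% of all measured genes. Cdkn1a, the cell cycle inhibitor p21, had 4992 counts in effector memory, 143 in central memory and 2 in naive, a ratio of effector memory to naive of 2172-fold (interval 601 to 17937). It reached 5 CPM only through effector memory in that pair. Ndrg1, a stress-responsive gene, was at 174, 19.1 and 6.54 CPM in effector memory, central memory and naive, 26.5-fold higher in effector memory than in naive (interval 22.9 to 30.9). Ndrg2 was 8.13-fold higher (interval 7.11 to 9.34). Gadd45a, a stress-induced growth arrest gene, was 5.48-fold lower (interval 4.04 to 7.56), while its relative Gadd45b was 2.42-fold higher (interval 2.06 to 2.85). In this pair and in central memory against naive, Gadd45a reached 5 CPM only through naive, so it could be called in 1 direction only. In central memory against naive Ndrg1 and Ndrg2 were higher and Gadd45a lower, of 6 measured, beside 11.2% and 5.12% of all measured genes. In effector memory against central memory Cdkn1a, Ndrg1, Gadd45b and Ndrg2 were higher, 4 of 6 measured, and none was lower. Of all measured genes in that pair, 14.8% were higher and 12.8% lower. Cdkn1a reached 5 CPM there only through effector memory, and at a minimum of 20 CPM 3 genes were higher. Ndrg1 and Cdkn1a respond to many other inputs, and the part of MYC in their levels was not tested.

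Of the 5 genes listed as targets of MondoA with MLX, 1 was higher and 2 were lower in effector memory against naive, beside 22.3% and 15.6% of all measured genes. Txnip, an inhibitor of glucose uptake, was at 348, 784 and 793 CPM in effector memory, central memory and naive, 2.28-fold lower in effector memory than in naive (interval 2.23 to 2.33). Arrdc4, its close relative, was at 1.13, 6.50 and 14.3 CPM, 12.7-fold lower in effector memory than in naive (interval 9.02 to 18.4) and 2.20-fold lower in central memory than in naive (interval 1.87 to 2.60). In effector memory against naive Arrdc4 reached 5 CPM only through naive, so there it could be called in 1 direction only. Klf10 was 2.32-fold higher in effector memory (interval 2.01 to 2.69) and 2.54-fold higher in central memory (interval 2.21 to 2.93), both against naive. Arrdc3 was at 14.8, 37.9 and 21.9 CPM and Pfkfb3, an activator of glycolysis, at 78.1, 54.4 and 40.3 CPM, with neither past the rule against naive. In effector memory against central memory none of the 5 was higher and 3 were lower, namely Arrdc4, Arrdc3 and Txnip. Of all measured genes in that pair, 14.8% were higher and 12.8% lower. Arrdc4 reached 5 CPM there only through central memory. Mlx and Mlxip, which encode the 2 partners of that dimer, did not pass in any comparison.

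Among 9 other bHLH-ZIP factors, which bind related E-boxes, 2 of 7 measured were higher in effector memory against naive and none was lower (median log2 ratio 0.15), beside 22.3% and 15.6% of all measured genes, so the share of higher genes is near that of all genes. These were the sterol regulators Srebf2, 2.78-fold higher (interval 2.70 to 2.87), and Srebf1, 2.16-fold higher (interval 2.08 to 2.24). Tfeb, a regulator of lysosomal genes, was 2.17-fold higher in central memory than in naive (interval 1.91 to 2.47), and did not pass with upper quartile factors. In effector memory against central memory Srebf1 alone was higher, of 7 measured, and none was lower. That share of higher genes is near the 14.8% of all measured genes in that pair, of which 12.8% were lower.

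**Figure D4:**
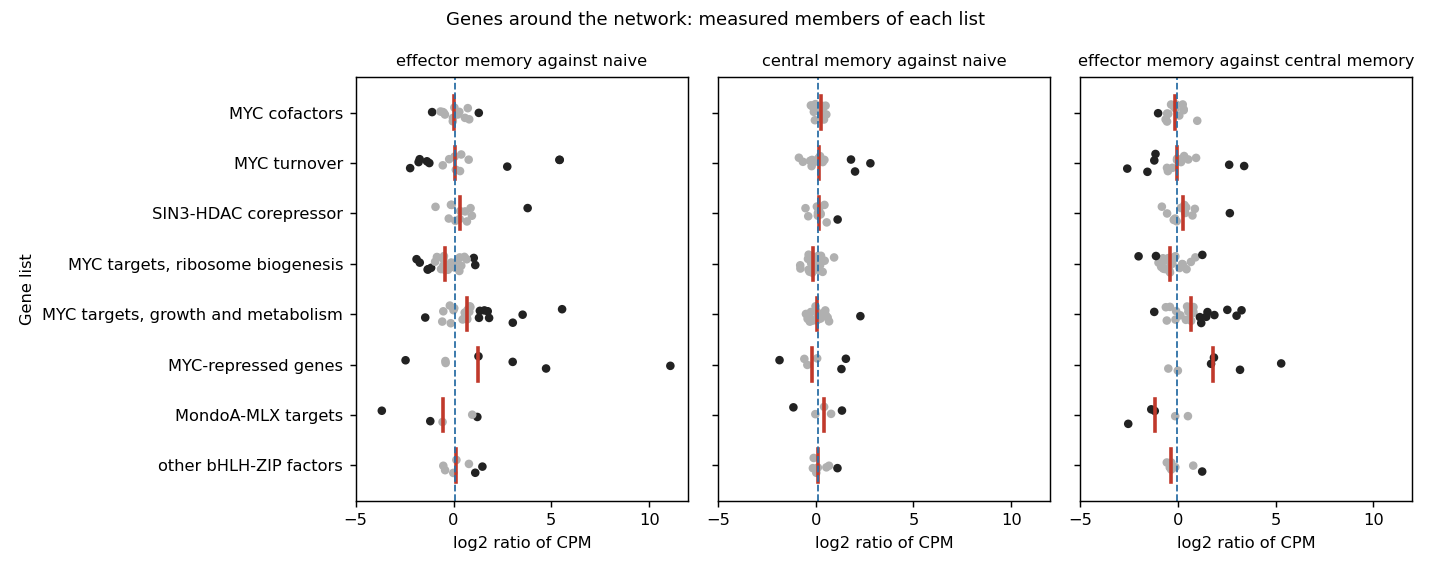
Log2 ratio of CPM for the measured genes of 8 lists around the network in the 3 comparisons (dots; black past the 2-fold rule), with each list's median in red and the median of all measured genes as a dashed blue line. In effector memory against naive the growth and metabolism targets have a median of 0.71 and the ribosome biogenesis targets one of -0.43.

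The genes whose levels followed Myc most closely across the 3 libraries, among 7946 others with at least 20 CPM in their highest library, were Zfp687, a zinc finger gene, Klc4, a kinesin light chain, and Hsd17b4, an enzyme of peroxisomal fatty acid oxidation. Zfp687 was at 43.2, 81.5 and 49.2 CPM in effector memory, central memory and naive, a distance of 0.0397 from Myc on centred log2(CPM + 1). The genes nearest to Mxd3, the antagonist with the widest range, were E2f7, Raph1 and Serpine2. E2f7, a repressive E2F factor of the S phase, had 1507 counts in effector memory, 413 in central memory and none in naive, at a distance of 0.0915. Likeness over 3 libraries is a description, since any gene with the same order of 3 values can come close.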

How the data were processed

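The deposited table holds raw read counts per gene symbol, 1 column per library. For the authors' steps, the submitters' processing notes list the build mm10 and the tools featureCounts 1.5.0-p3, HISAT2 2.0.5 and CASAVA. Which annotation was used, whether counting was stranded and how multi-mapping reads were handled is not given in the sources used here. The columns TEM, TCM and TN were read as effector memory, central memory and naive from their abbreviations.

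Counts were scaled by TMM effective library size (edgeR 4.0.16 in R 4.3.3). Ratios of CPM carry exact (Clopper-Pearson) counting intervals, single levels exact Poisson intervals, and the activator to antagonist quotient a Poisson delta-method interval. With 1 library per group, no p-value was computed. The members and lists were chosen with earlier results of these data known. All 9 network genes were named; from each other list, up to 4 called genes with the largest log2 ratio in each comparison, and every gene of lists of 5 or fewer. Marker and proliferation genes were given only in part, and some markers are not reported here. Rrp9, Ncl, Ccnd2, Usp28, Ppp2r5a, Huwe1, Fbxw7 and Ncor1 lie outside this rule, picked with their values already in view. Lengths and coordinates come from GENCODE M21 (GRCm38), where 98.5% of the symbols matched 1 gene. Promoter windows come from RefSeq, where 8 of the 9 genes matched. The calling script was tested on simulated data. Alternatives were upper quartile factors, size factors from DESeq2 1.42.0, total counts, longest transcript lengths, and changed limits on level and ratio. Python 3.11.15 was used with pandas 2.3.3, SciPy 1.17.1 and NumPy 2.4.6.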

Additional observations from a re-analysis of the deposited data

How the results depend on the processing

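The scalings moved 1 call of a network gene: with total counts Myc passed as lower in effector memory against central memory, giving 2 lower genes in place of 1. Every other call of the 9 genes held under total counts, DESeq2 size factors and upper quartile factors, and no called gene changed direction. These scalings moved the median log2 ratio of all genes by at most -0.13 (upper quartile factors, central memory against naive). A ratio of 1.5 made 1 gene, Max, lower in effector memory against naive and 5 lower in effector memory against central memory (Mxd4, Myc, Max, Mxd1 and Mnt), and it added Mxd1 as higher in the first and Myc in central memory against naive. A ratio of 3 left 2 higher genes, Mxd3 and Mxd4, in central memory against naive. With no minimum level Mycn was called higher in central memory against naive, and at a minimum of 20 CPM Mxd3 was not called there.

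Counts over all genes were less stable. In effector memory against naive, 3566 were higher and 2596 lower with no minimum level, 2649 lower at a ratio of 1.5, and 1446 higher and 750 lower at a ratio of 3. In central memory against naive, 2020 and 1540 were higher and lower with no minimum level, 937 lower at 1 CPM, 544 and 286 higher and lower at 20 CPM, 2143 and 1051 at a ratio of 1.5, and 636 and 264 at a ratio of 3. In effector memory against central memory, 2830 and 1980 were higher and lower with no minimum level, 2396 and 2528 at a ratio of 1.5, and 859 and 514 at a ratio of 3. These shifts follow from the altered thresholds. The counts of called genes in the lists around the network also moved with these thresholds, and with the scalings by at most 1 gene a list and direction.

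No paired analysis was possible because each group has 1 library, and leaving out a library ends its comparisons. Depth limits the values of Mycn in central memory and naive and of Mxd3 in naive, where 18, 4 and 2 counts were recorded.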
